A study of Mus musculus with 12 samples.

Results

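The 44 genes described here encode the machinery that copies DNA during S phase, and they were chosen by name from the 25078 genes of the count table. They fall into 10 functional groups, which are the 6 subunits of the MCM2-7 helicase, 6 genes that activate it (GINS, Cdc45, and Mcm10), 4 genes of origin licensing, 4 subunits of polymerase alpha-primase, 5 subunits of polymerases delta and epsilon, 6 genes of the PCNA clamp and its RFC loader, 3 RPA subunits, 3 genes of Okazaki fragment maturation, 3 genes of deoxynucleotide supply, and 4 genes of chromatin assembly and fork protection. All 44 were detected in every library, and all 44 passed the filter on low counts in each fit, among 11959 genes tested for CD4+ and 12002 for CD8+ T cells.

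The RNA came from donor T cells of the liver, sorted on day 6 after allogeneic hematopoietic cell transplantation (HCT). The hosts were BALB/c mice after a lethal dose of irradiation. Each received C57BL/6 marrow without its T cells and, in the same graft, CD90.2+ T cells from 1 of 3 kinds of donor. WT donors were unmodified C57BL/6 mice, STAT3-/- donors carried a floxed Stat3 gene deleted by a Cre driven by the CD4 promoter, and STAT3-/-PD-1-/- donors carried the same deletion together with a PD-1 gene missing from all cells. Donor cells were sorted as H-2Kb+TCRβ+ CD4+ or CD8+ cells, and the methods describe each library as cells combined from 3 recipients. There were 2 libraries in each of the 6 groups. A p-value sets a difference against the spread between pools, estimated over all groups of a fit with information shared between genes. All 6 groups shared the irradiation, the marrow, and the BALB/c host, and the ages of the mice were not given in the sources used here. In the paper, WT and STAT3-/-PD-1-/- T cells caused lethal acute graft-versus-host disease, and STAT3-/- T cells only a mild form. Donor genotype and disease of the host thus went together, and their parts in a difference cannot be told apart. Libraries held 21676125 to 24551477 counts, with a median of 23442480, and the lowest count of any of the 44 genes in any library was 223.

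Before a cell divides, ORC, Cdc6, and Cdt1 load the MCM2-7 ring onto origins in G1. In S phase Cdc45 and GINS join the ring to form the active helicase, polymerase alpha-primase starts each strand, and polymerases delta and epsilon extend it on the PCNA clamp. Transcription of most of these genes is periodic and is driven by E2F factors at the G1/S boundary, and activated T cells, which divide fast, express them at high levels.

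The letters that E2F factors are known to bind were looked up in the promoters, because these genes moved together in the comparisons that follow. The RefSeq table of promoters (GRCm38.p6, 250 bases before the start and 50 from it) held 41 windows for 36 of the 44 genes. The motifs TTTCGCGC and TTTGGCGC were searched on both strands and can overlap each other on opposite strands. At least 1 of them was found in 10 of the 41 windows, which is 24.4% with a 95% Wilson interval of 13.8% to 39.3%, against 267 of 32851 windows of all genes, or 0.813%. Those 10 windows belonged to Mcm3, Mcm5, Mcm6, Mcm7, Orc1, Cdt1, Pola1, Pole2, Rfc3, and Lig1. The 5 stretches of 30 bases shown next were chosen because they belong to genes described in detail (Mcm3, Cdt1, Rfc3, and Lig1) or are an example of an overlapping pair of motifs (Mcm5), which Mcm6 also holds. They are written in the direction of transcription, with the motif in capitals. They lie at chr1:20820263-20820292 (minus strand, motif starting at base 39 of the transcript) for Mcm3, chr8:122568035-122568064 (plus strand, base 33) for Cdt1, chr5:151651200-151651229 (minus strand, base -10) for Rfc3, chr7:13278841-13278870 (plus strand, base 27) for Lig1, and chr8:75109347-75109376 (plus strand, first motif at base -153) for Mcm5.
Mcm3: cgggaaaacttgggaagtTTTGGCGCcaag
Cdt1: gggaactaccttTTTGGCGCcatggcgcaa
Rfc3: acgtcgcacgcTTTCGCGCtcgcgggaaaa
Lig1: cgccaaagtgcGCGCGAAAtctgtgtggcg
Mcm5: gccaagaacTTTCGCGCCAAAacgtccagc
The capitals in Lig1 are TTTCGCGC on the opposite strand, and those in Mcm5 are TTTCGCGC followed by TTTGGCGC on the opposite strand, sharing their GCGC. The start used for Lig1 lies inside the span used for counting. A CCAAT box, searched on both strands, was present in 23 of the 41 windows (56.1%) and in 37.4% of all windows. These matches are descriptions of the sequence only.

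The targeted genes were checked first. Stat3 (chr11:100886806-100939540) stood at 369 and 467 CPM, which are counts scaled to the TMM-adjusted size of the library, in the WT, 140 and 164 in the STAT3-/-, and 157 and 219 in the STAT3-/-PD-1-/- libraries of CD4+ T cells. The corresponding CD8+ values were 397 and 384, 149 and 136, and 154 and 235 CPM. Every library with the deletion lay below both WT libraries of its subset. The log2 difference of STAT3-/- from WT was -1.46 in both subsets, with an adjusted p (edgeR's quasi-likelihood test, Benjamini-Hochberg over all genes tested) of 0.055 in CD4+ and 0.108 in CD8+ T cells. Against WT, Stat3 fell by 1.13 and 1.00 on the log2 scale in the CD4+ and CD8+ cells of STAT3-/-PD-1-/- donors (edgeR adjusted p = 0.018 and 0.0177). Pdcd1, which encodes PD-1 (chr1:94038305-94052553), stood at 247 and 235 CPM in WT, 261 and 323 in STAT3-/-, and 55.1 and 26.01 in STAT3-/-PD-1-/- CD4+ cells, and at 376 and 307, 424 and 454, and 93.6 and 65.6 CPM in CD8+ T cells. It fell by 2.83 and 2.45 in log2 terms in STAT3-/-PD-1-/- against STAT3-/- CD4+ and CD8+ T cells (edgeR adjusted p = 0.00724 and 0.00206). The RNA of both targets went in the direction of the labels.

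The sorted subsets carried their defining markers. Cd4 stood at 1242 to 1887 CPM in the CD4+ and at 0.356 to 2.74 CPM in the CD8+ libraries, whereas Cd8a stood at 589 to 1339 CPM in the CD8+ and at 0.424 to 5.64 CPM in the CD4+ libraries. Markers of other cells of the liver were low. The 9 hepatocyte genes summed to 0.848 to 3.10 CPM, with 8 of the 9 below 1 CPM in every library, and the 6 granulocyte and 8 erythroid precursor genes stayed below 1 CPM. The 8 macrophage or Kupffer cell genes summed to 7.02 to 15.9 CPM in CD4+ and 17.7 to 35.8 CPM in CD8+ libraries, mostly Cd68, while Adgre1 and Cd14 were below 1 CPM and the other 5 (Csf1r, Clec4f, Marco, Lyz2, and C1qa) reached 1.96 CPM and passed 1 CPM in replicate 2 of the WT and STAT3-/- groups only. The 5 B cell genes summed to 1.63 to 14.7 CPM, most of it Cd79b, and the 4 NK cell genes to 14.2 to 86.0 CPM, with Klrb1c or, in 3 of the CD8+ libraries, Eomes the most abundant and Ncr1 and Klra8 below 1 CPM. The 5 endothelial genes summed to 110 to 198 CPM, nearly all Pecam1, which T cells also express, and Lyve1, Kdr, and Cdh5 were below 1 CPM.

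PD-1 loss on top of STAT3 loss went with a broad rise of the replication genes in CD4+ T cells. Together the 44 genes took 0.410% and 0.357% of all counts in the WT, 0.444% and 0.408% in the STAT3-/-, and 0.728% and 0.758% in the STAT3-/-PD-1-/- libraries. Their summed level was 4274 and 3573 CPM, 4656 and 4116 CPM, and 7099 and 7228 CPM in the same order. Both STAT3-/-PD-1-/- libraries therefore lay above the other 4, while the STAT3-/- and WT ranges overlapped. Within each replicate number the STAT3-/- sum was above the WT sum. Relative to the mean of the WT libraries, the median gene stood at 0.13 and -0.13 (log2) in WT, 0.25 and 0.05 in STAT3-/-, and 0.97 and 0.95 in STAT3-/-PD-1-/- libraries. In these bulk samples, a larger share of replicating cells and more replication RNA per cell cannot be told apart.

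**Figure D1:**
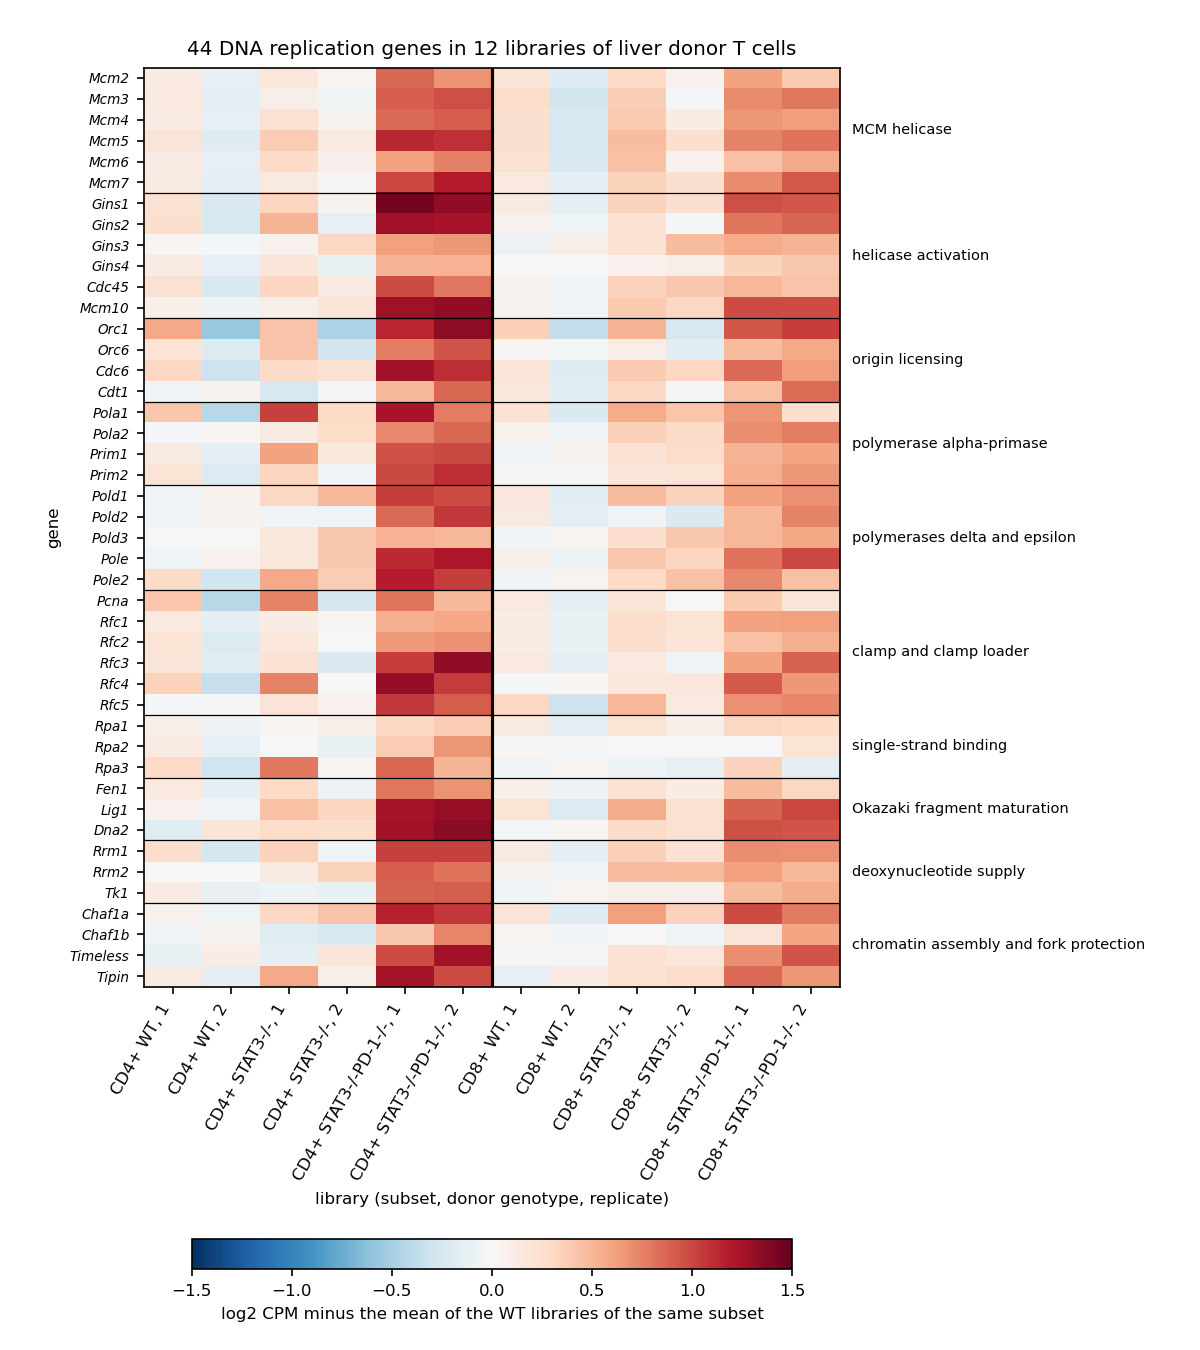
Log2 CPM of each of the 44 genes (rows, in functional groups) in each of the 12 libraries (columns, by subset, donor genotype, and replicate), as the difference from the mean of the WT libraries of the same subset. The STAT3-/-PD-1-/- columns are the darkest of each subset, with library medians of 0.97 and 0.95 in CD4+ and 0.61 and 0.64 in CD8+ T cells.

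Against WT, 34 of the 44 genes were higher in STAT3-/-PD-1-/- CD4+ cells at an adjusted p under 0.05 (edgeR), and 0 were lower, where 7.21% of all genes tested were higher and 5.65% lower. The median log2 fold change was 0.99, and values ran from 0.36 for Rpa1 to 1.43 for Gins1. The count at an unadjusted p under 0.05 was 42, against 15.6% of all genes, and in all 44 both STAT3-/-PD-1-/- libraries lay above both WT libraries, against 29.6% of all genes. The 10 genes that missed the threshold were Gins4, Orc1, Orc6, Pola1, Pold3, Pcna, Rpa1, Rpa2, Rpa3, and Chaf1b. With the replicate number as a block all 44 passed, these 10 included, where 26% of all genes passed in either direction. The count of 34 depended on which library was left out. It fell far without either STAT3-/-PD-1-/- library or WT replicate 2, whereas the median stayed between 0.83 and 1.08. Such fits leave 1 library in a group, and the share of all genes they call is not given here.

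The STAT3-/- cells share the Stat3 deletion and have the PD-1 gene, and the paper reports milder disease in their hosts. Against STAT3-/- cells, 26 of the 44 genes were higher in STAT3-/-PD-1-/- CD4+ cells and 0 were lower, where 6.05% of all genes tested were higher and 5.03% lower. The median log2 fold change was 0.78, with a range from 0.25 for Pold3 to 1.25 for Orc1, a gene that did not pass the test. With an unadjusted p under 0.05 the count was 39, against 15.2% of all genes. In 41 of the 44 the libraries did not overlap, against 28.5% of all genes, and the 3 that did were Pola1, Pcna, and Rpa3. The count of 26 fell far without STAT3-/- replicate 2 or either STAT3-/-PD-1-/- library, and the median stayed between 0.72 and 0.83. Both comparisons use the same STAT3-/-PD-1-/- libraries and are not independent of each other.

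The replication genes also rose in CD8+ T cells, from a higher level in WT. They took 0.618% and 0.542% of all counts in the WT, 0.706% and 0.656% in the STAT3-/-, and 0.928% and 0.953% in the STAT3-/-PD-1-/- libraries. The summed levels were 6458 and 5318 CPM, 7363 and 6553 CPM, and 8893 and 9103 CPM. The 3 genotypes did not overlap on this sum, and both STAT3-/-PD-1-/- libraries were the highest of the 12.

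Against WT, 31 of the 44 genes rose in STAT3-/-PD-1-/- CD8+ cells and 0 fell, where 9.01% of all genes tested rose and 8.21% fell. The median log2 fold change was 0.63, from 0.12 for Rpa2, which did not pass the test, to 1.00 for Mcm10. At an unadjusted p under 0.05 the count was 41, against 17.9% of all genes. Only Rpa2 and Rpa3 had overlapping libraries, so that 42 of the 44 did not overlap, against 30% of all genes. The count of 31 fell far without either STAT3-/-PD-1-/- library or WT replicate 2, with the median between 0.54 and 0.75.

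Against STAT3-/-, 15 of the 44 genes rose in STAT3-/-PD-1-/- CD8+ cells and 0 fell, where 8.76% of all genes tested rose and 8.05% fell. The median log2 fold change was 0.41, from -0.01 for Pola1 to 0.83 for Orc1, neither of which passed the test. At an unadjusted p under 0.05 the count was 27, against 17.9% of all genes, and in 41 of the 44 the libraries did not overlap, against 31.6% of all genes. The 15 genes were Mcm7, Gins1, Gins2, Mcm10, Orc6, Pola2, Prim2, Pold2, Pole, Rfc3, Rfc4, Dna2, Tk1, Timeless, and Tipin. Their count fell far whichever STAT3-/- or STAT3-/-PD-1-/- library was left out, with the median between 0.35 and 0.46.

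**Figure D2:**
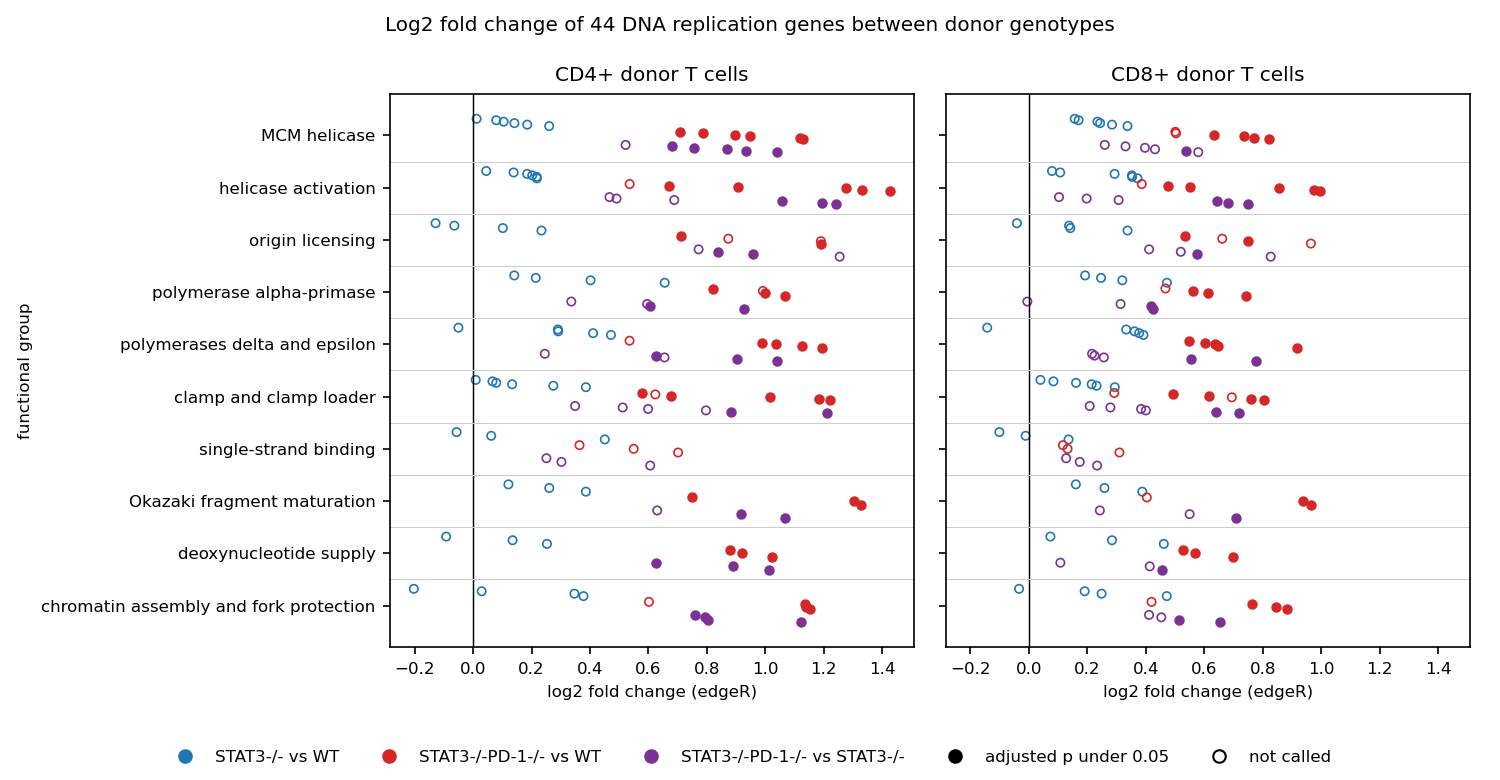
Log2 fold change (edgeR) of each of the 44 genes (points) by functional group (rows) for the 3 comparisons of donor genotypes (colours), in CD4+ (left) and CD8+ (right) T cells. Filled points passed an adjusted p of 0.05 and open points did not. All filled points belong to the comparisons of STAT3-/-PD-1-/- cells, and the RPA row has none.

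The MCM2-7 ring is the motor of the replicative helicase. All 6 of its subunits were higher in STAT3-/-PD-1-/- than in WT CD4+ T cells, with log2 fold changes from 0.71 (Mcm6) to 1.13 (Mcm5), and 5 of the 6 were higher than in STAT3-/- cells. Among CD8+ T cells, 4 of the 6 rose against WT and 1, Mcm7, rose against STAT3-/- cells. These counts, and those of the functional groups that follow, stand beside the shares of all genes tested that were higher. Against WT the shares were 7.21% in CD4+ and 9.01% in CD8+ T cells, and against STAT3-/- 6.05% and 8.76%. Mcm3, whose RPKM averaged the highest of the 6 over the 12 libraries, although Mcm6 was above it in the WT and STAT3-/- groups of both subsets, stood at 263 and 216 CPM in WT, 253 and 229 in STAT3-/-, and 444 and 466 in STAT3-/-PD-1-/- CD4+ cells. The WT and STAT3-/- values overlapped, and both STAT3-/-PD-1-/- values lay far above them. Its log2 fold change was 0.95 ± 0.15 (SE) against WT and 0.93 ± 0.15 against STAT3-/- (edgeR adjusted p = 0.0099 and 0.0142). The CD8+ values of Mcm3 were 416 and 284, 444 and 337, and 563 and 593 CPM, and Mcm3 rose by 0.74 ± 0.20 (log2) against WT (edgeR adjusted p = 0.0441).

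Per kilobase of exon, the scale on which genes can be set against each other, the 6 subunits lay within 2.01 to 2.48 times of each other in every group. In WT CD4+ T cells the deposited RPKM ran from 34.6 for Mcm7 to 79.7 for Mcm6. Mcm7 was the lowest of the 6 in the WT and STAT3-/- groups of both subsets, and Mcm2 was the lowest in both STAT3-/-PD-1-/- groups. Mcm7 went from 108 and 89.8 CPM in WT to 197 and 225 CPM in STAT3-/-PD-1-/- CD4+ cells, a log2 fold change of 1.12 ± 0.16, and Mcm2 from 157 and 134 to 263 and 231 CPM, a log2 fold change of 0.79 ± 0.15. Whether these 2 changes differ was not tested.

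The genes that turn the loaded ring into a working helicase held the largest change of the 44 against WT in each subset, Gins1 in CD4+ and Mcm10 in CD8+ T cells. Of Cdc45, the 4 GINS genes, and Mcm10, 5 rose in STAT3-/-PD-1-/- cells against WT in each subset and 3, the same Gins1, Gins2, and Mcm10, rose against STAT3-/- in each subset. Gins1 (chr2:150909594-150931280), which encodes the GINS subunit PSF1, stood at 14.4 and 10.3 CPM in WT, 15.3 and 12.7 in STAT3-/-, and 33.9 and 31.5 in STAT3-/-PD-1-/- CD4+ cells. The CD8+ values were 22.7 and 18.6, 26.2 and 24.5, and 40.8 and 39.8 CPM. In both subsets the STAT3-/-PD-1-/- pair was clear of the other 4 libraries. The log2 fold change of Gins1 in CD4+ T cells was 1.43 ± 0.21 against WT and 1.24 ± 0.21 against STAT3-/- (edgeR adjusted p = 0.00866 and 0.0163), and in CD8+ T cells it was 0.97 ± 0.14 and 0.68 ± 0.14 (0.00832 and 0.0228).

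Mcm10 (chr2:4990724-5012791), a scaffold needed to open origins, stood at 38.1 and 34.5 CPM in WT, 38.4 and 41.2 in STAT3-/-, and 88.3 and 91.7 in STAT3-/-PD-1-/- CD4+ cells. The CD8+ values were 63.5 and 59.1, 80.6 and 76.1, and 121 and 122 CPM. The 3 genotypes were separate and in the same order in both subsets. Mcm10 rose by 1.33 ± 0.15 and 1.19 ± 0.15 (log2) against WT and STAT3-/- in CD4+ T cells (edgeR adjusted p = 0.00414 and 0.00789) and by 1.00 ± 0.11 and 0.64 ± 0.11 in CD8+ T cells (0.00438 and 0.0131).

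Gins2 and Gins4 encode other subunits of GINS. Gins2 stood at 19.5 and 13.9, 23.7 and 15.1, and 40.2 and 39.4 CPM in CD4+, and at 28.9 and 26.4, 32.3 and 27.4, and 48.4 and 50.9 CPM in CD8+ T cells, in the order WT, STAT3-/-, and STAT3-/-PD-1-/-. Gins4, the most abundant of the 6 by RPKM, stood at 47.8 and 40.1, 49.6 and 40.9, and 62.6 and 62.9 CPM in CD4+, and at 56.7 and 57.3, 59.8 and 60.8, and 72.1 and 75.9 CPM in CD8+ T cells. The STAT3-/-PD-1-/- libraries of both genes lay above the rest of their subset, yet Gins4 did not pass in any comparison with the test used here, while 3 of 16 alternative analyses called it against WT in CD4+ and 5 of 16 in CD8+ T cells. Its log2 fold changes against WT were 0.54 ± 0.16 and 0.39 ± 0.11 (edgeR adjusted p = 0.074 and 0.0529). Gins2 rose by 1.27 ± 0.25 in CD4+ and 0.86 ± 0.13 in CD8+ T cells (0.0202 and 0.00954).

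**Figure D3:**
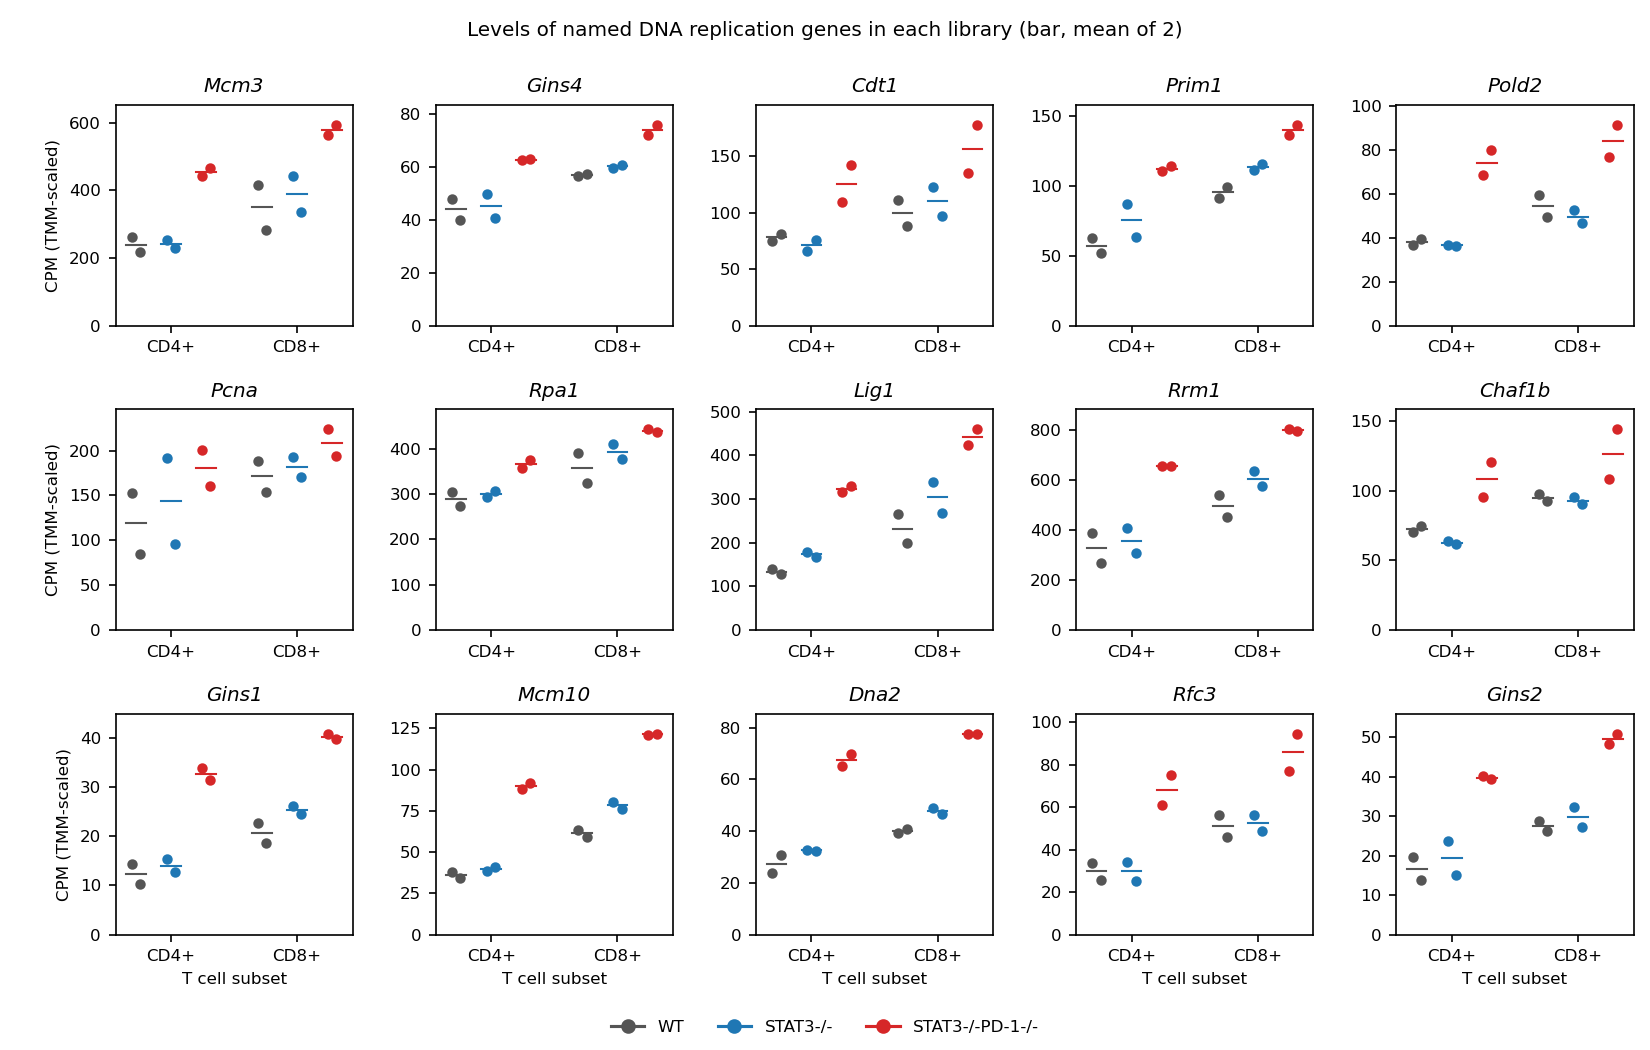
CPM of the 15 genes with the highest level of their group or the largest called changes (1 panel each, linear axis from 0), by T cell subset and donor genotype. Points are libraries and bars the mean of 2. In the panels of Gins1, Gins2, Mcm10, Dna2, and Lig1 both STAT3-/-PD-1-/- points lie above the other 4 of their subset, as for Mcm10 with 88.3 and 91.7 CPM in CD4+ T cells, and in the panel of Pcna they overlap with STAT3-/- in CD4+ T cells.

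Of the 4 origin licensing genes, 2 rose against WT in each subset. Cdc6, the ATPase that works with ORC to load MCM2-7, and Cdt1, its partner in loading, rose in STAT3-/-PD-1-/- CD4+ cells against both other genotypes, and Cdc6 and Orc6 rose in CD8+ T cells against WT. Cdt1 stood at 75.3 and 81.0, 66.3 and 76.3, and 109 and 142 CPM in CD4+ T cells. Its 2 STAT3-/-PD-1-/- libraries were the highest and also the farthest apart. The log2 fold change was 0.71 ± 0.18 against WT and 0.84 ± 0.18 against STAT3-/- (edgeR adjusted p = 0.0427 and 0.0308). The CD8+ values of Cdt1 were 111 and 88.2, 123 and 97.3, and 135 and 178 CPM, and it did not pass the test against WT (0.66 ± 0.19, edgeR adjusted p = 0.0556).

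Orc1, the largest ORC subunit, is singled out after its values were seen, because its replicates disagreed. It stood at 21.5 and 9.44 CPM in WT, 19.4 and 10.1 in STAT3-/-, and 32.2 and 37.0 in STAT3-/-PD-1-/- CD4+ cells. The ratio of the WT pair was 2.28, the largest of the 44 genes in that group. With log2 fold changes of 1.19 ± 0.41 and 1.25 ± 0.41 against WT and STAT3-/-, Orc1 had 1 of the largest differences of the 44 genes and no call (edgeR adjusted p = 0.103 and 0.0934), while 7 of 16 alternative analyses, the replicate block among them, called it against WT.

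Polymerase alpha-primase lays down the RNA-DNA primers of both strands. Its subunits Pola2, Prim1, and Prim2 rose in STAT3-/-PD-1-/- cells against WT in both subsets, and Pola2 and Prim2 also rose against STAT3-/- in both. Prim1, the catalytic subunit of primase, stood at 62.5 and 52.0, 87.0 and 63.8, and 111 and 114 CPM in CD4+, and at 91.7 and 99.3, 111 and 116, and 136 and 144 CPM in CD8+ T cells. The 3 genotypes followed each other without overlap in both subsets. Prim1 rose by 1.00 ± 0.19 and 0.56 ± 0.11 (log2) against WT (edgeR adjusted p = 0.0162 and 0.0194). The catalytic subunit Pola1 stood at 90.4 and 50.9, 139 and 83.4, and 160 and 116 CPM in CD4+ T cells and 138 and 102, 174 and 159, and 188 and 141 CPM in CD8+ T cells. Its CD4+ replicates were well apart, and it was not called in any comparison. The log2 fold change of Pola1 was 0.99 ± 0.33 against WT in CD4+ T cells (edgeR adjusted p = 0.093), within the range of its partners, and -0.01 ± 0.19 against STAT3-/- in CD8+ T cells.

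Polymerase epsilon extends the leading and polymerase delta the lagging strand. Against WT, 4 of their 5 genes rose in STAT3-/-PD-1-/- CD4+ cells, with Pold3 at 0.54 ± 0.15 (edgeR adjusted p = 0.0599), and all 5 rose in CD8+ T cells. Pole, the catalytic subunit, stood at 92.8 and 101 CPM in WT, 108 and 129 in STAT3-/-, and 211 and 225 in STAT3-/-PD-1-/- CD4+ cells, and at 172 and 155, 216 and 205, and 288 and 325 CPM in CD8+ T cells. The genotypes did not overlap in either subset, and the log2 fold change against STAT3-/- was 0.90 ± 0.16 in CD4+ cells and 0.56 ± 0.12 in CD8+ cells (edgeR adjusted p = 0.0177 and 0.0238). Pold2, the accessory subunit of polymerase delta, stood at 36.6 and 39.3, 36.8 and 36.3, and 68.5 and 79.9 CPM in CD4+ and at 59.6 and 49.6, 52.5 and 46.6, and 76.95 and 91.4 CPM in CD8+ T cells. The WT and STAT3-/- libraries overlapped, and Pold2 rose against STAT3-/- by 1.04 ± 0.16 and 0.78 ± 0.15 (log2) in CD4+ and CD8+ T cells (edgeR adjusted p = 0.012 and 0.0182).

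PCNA is the ring that holds the polymerases on DNA, and RFC is the complex that loads it. Pcna had the highest RPKM of its group and was not called between genotypes in the main fits. It passed against WT in STAT3-/-PD-1-/- CD4+ T cells with the replicate number as a block. It stood at 153 and 85.3 CPM in WT, 192 and 95.9 in STAT3-/-, and 200 and 161 in STAT3-/-PD-1-/- CD4+ cells. Replicate 1 was well above replicate 2 in WT and STAT3-/- cells, with a ratio of 2.00 in STAT3-/-, and the libraries of STAT3-/- and STAT3-/-PD-1-/- overlapped. The log2 fold change against WT was 0.62 ± 0.36 in CD4+ (edgeR adjusted p = 0.306) and 0.29 ± 0.14 in CD8+ T cells (0.192), where Pcna stood at 189 and 154, 193 and 171, and 223 and 194 CPM.

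Of the 5 RFC genes, 5 rose in STAT3-/-PD-1-/- against WT in CD4+ and 4 in CD8+ T cells, all but Rfc5 in the latter. Rfc3 stood at 33.6 and 25.9, 34.3 and 25.3, and 61.0 and 75.1 CPM in CD4+, and at 56.4 and 45.7, 56.3 and 48.7, and 77.1 and 94.4 CPM in CD8+ T cells. Its WT and STAT3-/- values were nearly the same, and the STAT3-/-PD-1-/- libraries lay above them. Rfc3 rose against STAT3-/- by 1.21 ± 0.22 in CD4+ and 0.72 ± 0.16 (log2) in CD8+ T cells (edgeR adjusted p = 0.0188 and 0.0279).

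RPA, which coats single-stranded DNA at forks and in repair, was the 1 group without a call between genotypes, although all 3 genes passed against WT in CD4+ T cells with the replicate number as a block. With edgeR 0 of its 3 genes passed in any comparison of genotypes, and in STAT3-/-PD-1-/- against WT 2 in CD4+ and 1 in CD8+ T cells had an unadjusted p under 0.05. Rpa1 stood at 304 and 274, 294 and 307, and 358 and 374 CPM in CD4+, and at 390 and 325, 411 and 377, and 443 and 438 CPM in CD8+ T cells. The STAT3-/-PD-1-/- libraries were the highest of each subset. The log2 fold change of Rpa1 against WT was 0.36 ± 0.14 and 0.31 ± 0.12 (edgeR adjusted p = 0.124 and 0.113), and that of Rpa2 was 0.55 ± 0.17 and 0.12 ± 0.11 (0.0696 and 0.519). The median over the 3 genes was 0.55 in CD4+ cells and 0.13 in CD8+ cells, beside 0.99 and 0.63 over all 44, and whether RPA differs from the other groups was not tested.

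The genes that join Okazaki fragments rose together against WT in CD4+ T cells, where all 3 were called. Lig1, the ligase that seals the nicks, stood at 139 and 127, 180 and 167, and 316 and 330 CPM in CD4+, and at 265 and 199, 339 and 269, and 423 and 459 CPM in CD8+ T cells. In both subsets the order was WT, STAT3-/-, and STAT3-/-PD-1-/- with no overlap. The log2 fold change against WT was 1.30 ± 0.14 and 0.94 ± 0.17 (edgeR adjusted p = 0.00395 and 0.014), and against STAT3-/- it was 0.92 ± 0.14 in CD4+ cells (0.0119) and 0.55 ± 0.17 in CD8+ cells (0.0635). Dna2, a nuclease and helicase that trims long flaps, stood at 23.7 and 30.7, 32.6 and 32.5, and 65.1 and 69.6 CPM in CD4+ and at 39.1 and 40.7, 49.0 and 46.7, and 77.5 and 77.4 CPM in CD8+ T cells. It rose against STAT3-/- by 1.07 ± 0.18 and 0.71 ± 0.11 (edgeR adjusted p = 0.0147 and 0.0106). Fen1, the main flap nuclease, rose against WT in CD4+ T cells (0.75 ± 0.18, edgeR adjusted p = 0.0351) and stood at 0.40 ± 0.12 in CD8+ T cells (0.0581).

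The 3 genes of deoxynucleotide supply, the ribonucleotide reductase subunits Rrm1 and Rrm2 and the thymidine kinase Tk1, rose against WT in both subsets and against STAT3-/- in CD4+ T cells. Rrm1 had the highest RPKM of the 44 genes on average, although not in either WT group or in STAT3-/- CD4+ T cells, where Pcna was among the genes above it. Rrm1 stood at 386 and 268, 409 and 306, and 654 and 654 CPM in CD4+, and at 542 and 450, 635 and 575, and 802 and 796 CPM in CD8+ T cells. The STAT3-/-PD-1-/- replicates were almost equal, whereas the WT replicates were well apart. Rrm1 rose against WT by 1.02 ± 0.21 and 0.70 ± 0.12 (edgeR adjusted p = 0.0217 and 0.0116). Against STAT3-/- in CD8+ T cells, Tk1 rose by 0.46 ± 0.11 (0.0349), while Rrm2 stood at 0.11 ± 0.10 (0.5).

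Of the 4 genes of chromatin assembly and fork protection, Chaf1a (the large subunit of the histone chaperone CAF-1), Timeless, and Tipin (the pair that steadies stalled forks) rose against WT in both subsets. All 4 rose against STAT3-/- in CD4+ T cells, and Timeless and Tipin did so in CD8+ T cells. Chaf1b, the middle subunit of CAF-1, stood at 70.01 and 74.8, 63.9 and 61.6, and 95.6 and 121 CPM in CD4+, and at 97.5 and 92.4, 95.3 and 90.5, and 108 and 144 CPM in CD8+ T cells. Both STAT3-/- libraries of CD4+ T cells lay below both WT libraries, the 1 gene of the 44 for which this held, where it held for 19.4% of all genes. Chaf1b rose by 0.80 ± 0.17 (log2) against STAT3-/- in CD4+ T cells (edgeR adjusted p = 0.0275), and it did not pass against WT (0.60 ± 0.16, 0.0532).

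With STAT3 loss alone the median differences were smaller. In CD4+ T cells 0 of the 44 genes were called in STAT3-/- against WT with edgeR, where 0.151% of all genes tested were higher and 0.184% lower. DESeq2 also called 0 of the 44. With the replicate number as a block 1 gene, Pola1, was called, where 2.53% of all genes were called in either direction. At an unadjusted p under 0.05, 3 were higher (Pold1, Lig1, and Chaf1a), against 5.28% of all genes. The median log2 fold change was 0.16, and 38 of the 44 were above 0, against 51.7% of all genes. The STAT3-/- libraries lay above both WT libraries in 13 of the 44, against 18.8% of all genes. With 1 library left out in turn the median ran from 0.00096 to 0.27. Between libraries of the same replicate number, 33 (replicate 1) and 39 (replicate 2) of the 44 were higher in STAT3-/-. The shares of all genes were 50.9% and 49.3%, and the median differences of the 44 were 0.11 and 0.18 (log2).

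In CD8+ T cells the count for STAT3-/- against WT was likewise 0 with edgeR, where 0.0167% of all genes tested were higher and 0.0417% lower. DESeq2 called 1 of the 44, and the share of all genes it called is not given here. At an unadjusted p under 0.05, 12 of the 44 were higher, against 6.01% of all genes. They were Gins3, Cdc45, Mcm10, Pola1, Pola2, Pold1, Pold3, Pole, Pole2, Rrm1, Rrm2, and Chaf1a. The median was 0.24, from -0.14 for Pold2 to 0.47 for Pola1, and 39 of the 44 were above 0, against 48.8% of all genes. In 27 of the 44 both STAT3-/- libraries lay above both WT libraries, against 22.5% of all genes, and in 1, Rpa3, below, against 21.1%. With 1 library left out in turn the median ran from 0.13 to 0.33. Between libraries of the same replicate number, 39 (replicate 1) and 40 (replicate 2) of the 44 were higher in STAT3-/-. The shares of all genes were 49.0% and 50.2%, and the median differences of the 44 were 0.19 and 0.28 (log2). Rrm2 was the gene with the smallest p, at 210 and 195 CPM in WT and 278 and 280 in STAT3-/- CD8+ T cells, a log2 difference of 0.46 ± 0.10 (edgeR adjusted p = 0.252).

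CD8+ T cells carried more replication RNA than CD4+ T cells of the same donor genotype. In WT cells 24 of the 44 genes were higher in CD8+ (edgeR, 12 libraries in 1 fit) and 0 lower, where 4.91% of the 12334 genes tested were higher and 5.59% lower, with a median log2 difference of 0.65. In STAT3-/- cells 30 were higher, where 4.81% of all genes were and 4.82% were lower, with a median of 0.67. In STAT3-/-PD-1-/- cells 0 were called, where 1.65% of all genes were higher and 2.5% lower, with a median of 0.33. In that genotype 15 of the 44 were higher at an unadjusted p under 0.05 (edgeR), against 6.49% of all genes. DESeq2 called 3 of the 44, and the share of all genes it called is not given here. In 38 of the 44 both CD8+ libraries lay above both CD4+ libraries, against 24.6% of all genes. All 44 log2 differences were above 0 in each of the 3 genotypes, against 50.2% (WT), 49% (STAT3-/-), and 51.8% (STAT3-/-PD-1-/-) of all genes.

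Both subsets were sorted from liver cells of the same recipients, although the labels do not tie equal replicate numbers to a pool. With equal numbers taken as a pool and used as a block, the counts were 40 for WT, 41 for STAT3-/-, and 16 for STAT3-/-PD-1-/- cells. Of all genes, 24.3%, 24.9%, and 14.4% were called in either direction. With the replicate number alone as a block the counts were 35, 37, and 5, where 16.3%, 15.5%, and 7.61% of all genes were called. The count in WT fell far without CD8+ WT replicate 1 or CD4+ WT replicate 2. The count in STAT3-/- fell far without CD8+ STAT3-/- replicate 1 or STAT3-/- replicate 2 of either subset. Mcm10 shows the pattern, with a log2 difference between the subsets of 0.76 ± 0.11 in WT and 0.98 ± 0.11 in STAT3-/- cells, and of 0.43 ± 0.11 in cells of STAT3-/-PD-1-/- donors (edgeR adjusted p = 0.00212, 0.000613, and 0.0611).

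**Figure D4:**
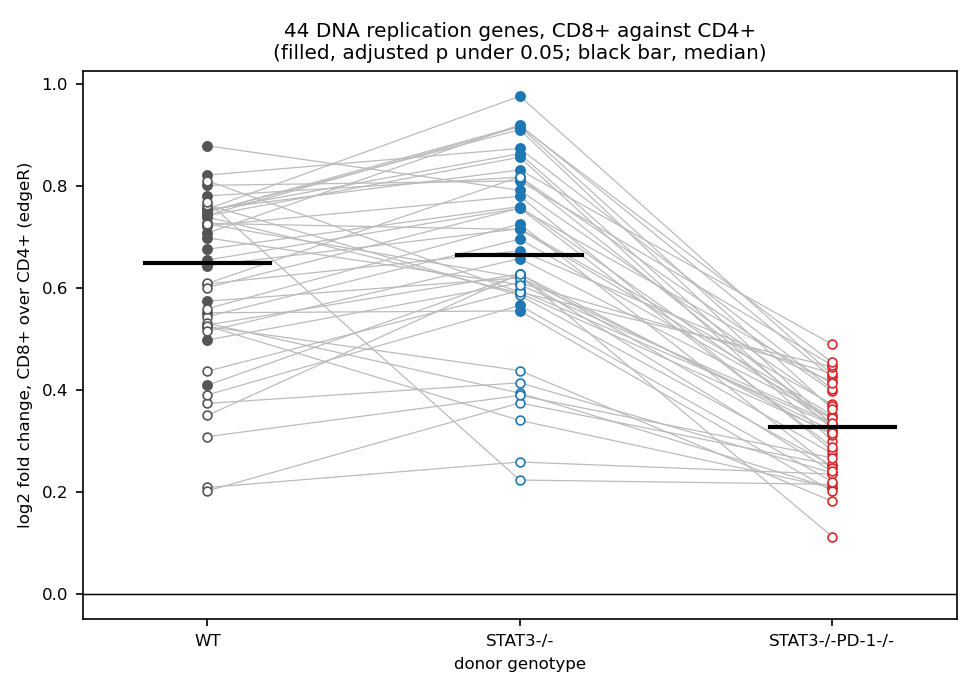
Log2 fold change of CD8+ over CD4+ T cells (edgeR, 12 libraries in 1 fit) for each of the 44 genes (points, joined by grey lines) in the 3 donor genotypes. Filled points passed an adjusted p of 0.05 and black bars are medians, at 0.65 for WT, 0.67 for STAT3-/-, and 0.33 for STAT3-/-PD-1-/- cells.

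The difference between the subsets in the response to genotype was tested as an interaction. For STAT3-/-PD-1-/- against STAT3-/-, all 44 log2 fold changes were smaller in CD8+ than in CD4+ T cells, with a median difference of -0.35. Of all genes tested, 51.1% had a larger fold change in CD8+ T cells. With edgeR 0 of the 44 passed (and 0 with DESeq2), where 0% of all genes tested passed. At an unadjusted p under 0.05 there were 6, Mcm7, Cdc45, Mcm10, Rpa2, Rrm2, and Tk1, against 2.22% of all genes. For STAT3-/-PD-1-/- against WT, 42 of the 44 were smaller in CD8+ T cells, with a median difference of -0.32, and 0 passed, where 49.8% of all genes were larger in CD8+ T cells and 0.00811% passed. For STAT3-/- against WT, 33 of the 44 were larger in CD8+ T cells, where 51.5% of all genes were, with a median difference of 0.08, and with edgeR 0 passed, also at an unadjusted p under 0.05. A difference between the subsets was thus not called for any of the 44 genes.

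The calls of the subsets were set side by side. Against WT, 29 genes were called in both, out of 34 CD4+ and 31 CD8+ calls. The 5 called in CD4+ T cells alone were Mcm2, Mcm6, Cdt1, Rfc5, and Fen1, and the 2 in CD8+ T cells alone were Orc6 and Pold3. Against STAT3-/-, 13 were called in both, out of 26 CD4+ and 15 CD8+ calls. Of all genes tested, 7.21% were higher in CD4+ and 9.01% in CD8+ T cells against WT, and 6.05% and 8.76% against STAT3-/-. The share of all genes called in both subsets is not given here. Whether the calls are shared beyond that share was not tested. Across the 44 genes, which are not independent replicates and were measured in cells of the same recipients, the log2 fold changes against WT in the subsets had a Pearson's r of 0.837 and a Spearman's rho of 0.863. The correlations over all genes tested are not given here, so whether this likeness is particular to the 44 was not tested.

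Genes with and without an E2F motif in the promoter window both rose. In STAT3-/-PD-1-/- against WT CD4+ T cells, 8 of the 10 genes with a motif were called with a median of 1.12 (log2), 19 of the 26 with a window and no motif with a median of 0.89, and 7 of the 8 without a window with a median of 1.1. Of all genes tested, 7.21% were higher in that comparison. The medians in CD8+ T cells were 0.75, 0.57, and 0.70. No test was made of these differences.

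Other genes of the replication pathway, from lists that do not include the 44, moved in the same direction in part. Their counts, and those of the regulators that follow, stand beside 6.05% of all genes higher and 5.03% lower in CD4+, and 8.76% higher and 8.05% lower in CD8+ T cells. Of 16 other origin and helicase genes, 8 rose in STAT3-/-PD-1-/- against STAT3-/- CD4+ T cells and 5 in CD8+ T cells, and 0 fell in either. Ticrr, which with Mtbp brings Cdc45 to origins, stood at 61.6 and 63.5 CPM in WT, 74.2 and 78.7 in STAT3-/-, and 127 and 147 in STAT3-/-PD-1-/- CD4+ cells (0.86 ± 0.15 against STAT3-/-, edgeR adjusted p = 0.0169). Orc2 led the list in CD8+ T cells, with 66.1 and 60.4 CPM in STAT3-/- and 114 and 106 in STAT3-/-PD-1-/- (0.81 ± 0.11, edgeR adjusted p = 0.00792). Of 17 other polymerase, clamp, and ligation genes, 5 rose in CD4+ and 3 in CD8+ T cells against STAT3-/-, among them in both Atad5, which unloads PCNA, by 1.08 ± 0.21 and 0.77 ± 0.18. Pold4, the smallest subunit of polymerase delta, fell by 1.00 (log2) in STAT3-/-PD-1-/- against WT CD8+ T cells (edgeR adjusted p = 0.0484). Its level was low, at 2.71 and 2.84 CPM in WT and 1.33 and 1.43 CPM in STAT3-/-PD-1-/- CD8+ cells. It is named after its value was seen because it was the 1 gene of that list called lower there, where 6 were called higher. Of all genes tested in that comparison, 8.21% were lower and 9.01% higher. Of 10 genes of chromatin replication, 2 rose in CD4+ and 5 in CD8+ T cells against STAT3-/-, and Uhrf1, which guides maintenance of DNA methylation, rose in both (0.93 ± 0.14 and 0.50 ± 0.14).

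Deoxynucleotide genes outside the 44 did not all move one way. Of 10 such genes, 5 rose and 2 fell in STAT3-/-PD-1-/- against STAT3-/- CD4+ T cells, and 4 rose and 2 fell in CD8+ T cells. Among those that rose was Dut, the dUTPase (1.05 ± 0.15 in CD4+ T cells, edgeR adjusted p = 0.0115). The 2 that fell were Tk2, the mitochondrial thymidine kinase, and Samhd1, which breaks down deoxynucleotides. Samhd1 stood at 543 and 501 CPM in WT, 848 and 977 in STAT3-/-, and 505 and 454 in STAT3-/-PD-1-/- CD4+ cells, and at 538 and 462, 742 and 765, and 406 and 371 CPM in CD8+ T cells. STAT3-/- libraries were the highest in both subsets. Samhd1 fell by 0.91 ± 0.14 and 0.94 ± 0.11 (log2) in STAT3-/-PD-1-/- against STAT3-/- cells (edgeR adjusted p = 0.0134 and 0.00517).

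Regulators of the G1/S step were looked at next. Of 19 genes of the E2F, RB, and DREAM families, 4 rose in STAT3-/-PD-1-/- against STAT3-/- CD4+ T cells (E2f1, E2f7, E2f8, and Mybl2) and 5 in CD8+ T cells (E2f3, E2f4, E2f8, Tfdp2, and Mybl2), and 0 fell in either. Mybl2, the B-Myb factor that joins DREAM subunits to drive cell cycle genes, stood at 28.7 and 34.0 CPM in WT, 29.95 and 31.3 in STAT3-/-, and 57.8 and 81.4 in STAT3-/-PD-1-/- CD4+ cells. It rose by 1.20 ± 0.21 in CD4+ and 0.87 ± 0.18 (log2) in CD8+ T cells (edgeR adjusted p = 0.0169 and 0.0234). E2f1, an activator, rose by 0.75 ± 0.15 in CD4+ T cells (0.0249), and E2f8, a repressor that is itself an E2F target, by 0.95 ± 0.17 and 0.55 ± 0.13 in CD4+ and CD8+ T cells (0.0188 and 0.0348).

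Of 16 tested G1/S cyclins, CDKs, and inhibitors, 4 rose and 1 fell against STAT3-/- in CD4+ T cells, and 4 rose and 3 fell in CD8+ T cells. Those that fell were inhibitors, Cdkn1b in both subsets and Cdkn2c and Cdkn2d in CD8+ T cells. Cdkn1b, which encodes p27, stood at 136 and 119 CPM in WT, 147 and 130 in STAT3-/-, and 81.2 and 72.3 in STAT3-/-PD-1-/- CD4+ cells, and at 103 and 101, 100 and 106, and 61.4 and 56.4 CPM in CD8+ T cells. Both STAT3-/-PD-1-/- libraries lay below the other 4 in each subset, with log2 differences from STAT3-/- of -0.83 ± 0.15 and -0.80 ± 0.11 (edgeR adjusted p = 0.0198 and 0.00818). Cdkn2a, another inhibitor, rose in CD4+ T cells from 3.01 and 2.76 to 7.05 and 7.98 CPM (1.40 ± 0.25, edgeR adjusted p = 0.0192). Cdc25a, the phosphatase that activates CDK2, rose in both subsets by 0.79 ± 0.15 and 0.69 ± 0.13. Of 7 tested S phase checkpoint genes, 0 were called in CD4+ T cells with edgeR, with 2 higher at an unadjusted p under 0.05, and 1, Hus1, rose in CD8+ T cells, a share near that of all genes.

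The rise of the replication genes was set beside 24 mitosis genes, which peak later in the cell cycle. Against WT, 16 of the 24 rose in STAT3-/-PD-1-/- CD4+ cells with a median of 0.93 (log2), and 11 rose in CD8+ T cells with a median of 0.47, where 7.21% and 9.01% of all genes were higher. Against STAT3-/-, 6 rose in CD4+ T cells with a median of 0.56, where 6.05% of all genes were higher, and 0 were called in CD8+ T cells (edgeR), also 0 at an unadjusted p under 0.05, with a median of 0.04. In CD8+ T cells the mitosis genes of STAT3-/- libraries already stood at 0.53 and 0.39 above the WT mean (median, log2), about where the STAT3-/-PD-1-/- libraries stood, at 0.52 and 0.39. The replication genes of the same libraries stood at 0.29 and 0.20, and at 0.61 and 0.64. In STAT3-/- against WT CD8+ T cells, 20 of the 24 mitosis genes were higher at an unadjusted p under 0.05, against 6.01% of all genes, and 0 were called.

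Aurkb, the chromosomal passenger kinase, shows the CD8+ pattern, with 127 and 104 CPM in WT, 168 and 141 in STAT3-/-, and 166 and 157 in STAT3-/-PD-1-/- CD8+ cells. The STAT3-/- and STAT3-/-PD-1-/- libraries overlapped, in contrast to Mcm10 in the same cells. In CD4+ T cells Aurkb stood at 70.2 and 74.4, 83.3 and 92.8, and 137 and 137 CPM and rose by 0.66 ± 0.14 against STAT3-/- (edgeR adjusted p = 0.0313). The summed CPM of the 44 replication genes over that of the 24 mitosis genes was 0.854 and 0.910 in WT, 0.788 and 0.769 in STAT3-/-, and 0.885 and 0.998 in STAT3-/-PD-1-/- CD4+ cells, and 0.937 and 0.900, 0.791 and 0.771, and 0.977 and 1.13 in CD8+ T cells. The ratio was lowest in both STAT3-/- libraries in each subset.

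**Figure D5:**
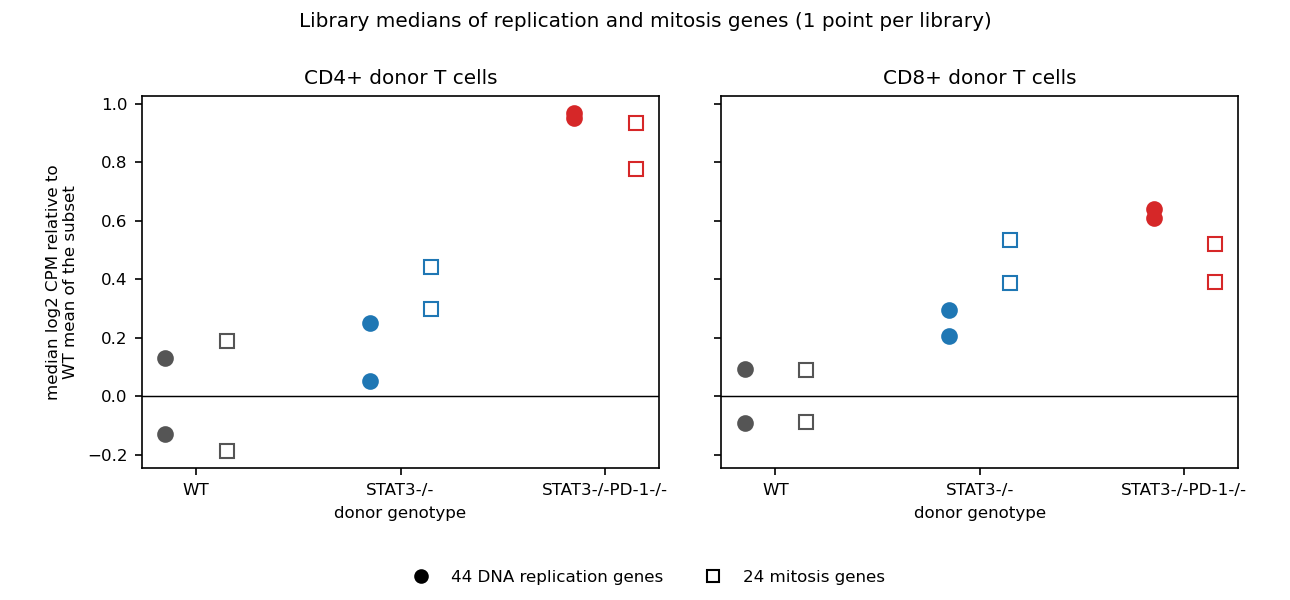
Median log2 CPM of the 44 replication and the 24 mitosis genes in each library (points), relative to the mean of the WT libraries of the same subset, by donor genotype, in CD4+ (left) and CD8+ (right) T cells. In CD8+ T cells the mitosis medians of STAT3-/- (0.53 and 0.39) and STAT3-/-PD-1-/- libraries (0.52 and 0.39) coincide, while the replication medians differ (0.29 and 0.20 against 0.61 and 0.64).

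The summed level of T cell markers was lowest in the STAT3-/-PD-1-/- libraries of each subset. The 8 T cell genes, of which Ptprc was the most abundant, summed to 9584 and 8334 CPM in WT, 8981 and 8032 in STAT3-/-, and 7486 and 6966 in STAT3-/-PD-1-/- CD4+ cells, and to 9456 and 9110, 8481 and 8732, and 6785 and 6366 CPM in CD8+ T cells. Against WT, 1 of the 8 fell in CD4+ (Cd2) and 5 fell in CD8+ T cells (Cd3d, Cd247, Lck, Cd2, and Ptprc). Of all genes tested, 5.65% were lower in CD4+ and 8.21% in CD8+ T cells. Cd4 fell by 0.52 (log2) in STAT3-/-PD-1-/- against WT CD4+ T cells (edgeR adjusted p = 0.0375). Cd8a and Cd8b1 fell by 1.09 and 0.87 (log2) in STAT3-/-PD-1-/- against WT CD8+ T cells. Cd68, the most abundant of the macrophage genes, fell by 0.71 in the same comparison, Cd79b by 1.18, and Klrb1c by 1.62, and among the NK cell genes Eomes, which activated T cells also express, rose by 1.40 in CD4+ T cells. Against STAT3-/-, 4 of the 8 T cell genes fell in CD8+ T cells (Cd247, Lck, Cd2, and Ptprc), where 8.05% of all genes tested were lower. Cd8a, Cd8b1, Cd68, and Cd79b fell there by 0.89, 0.95, 0.63, and 1.23 (log2), while Eomes rose by 1.14 in CD4+ T cells. The 5 lesser macrophage genes, at no more than 0.357 CPM in any STAT3-/-PD-1-/- library, were not called against WT (edgeR adjusted p = 0.138 to 0.449 in CD4+ and 0.193 to 0.262 in CD8+ T cells). The part of these shifts in the replication result was not tested.

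Replicates of the 44 genes differed by a median ratio of 1.20 for WT, 1.15 for STAT3-/-, and 1.09 for STAT3-/-PD-1-/- CD4+ cells, and of 1.17, 1.09, and 1.08 in CD8+ T cells. Within replicate 1 and within replicate 2, all 44 genes were higher in STAT3-/-PD-1-/- than in STAT3-/- CD4+ T cells, with medians of 0.68 and 0.85 (log2). Of all genes, 47.1% and 49.7% were higher there. In CD8+ T cells 44 and 41 of the 44 were higher, with medians of 0.34 and 0.47, against 49.9% and 49.3% of all genes. For 6 of the 44 genes, Gins2, Pold2, Rfc4, Fen1, Lig1, and Tk1, the span overlaps a gene on the opposite strand, and whether the counting used strand is not given in the sources used here. Their reads and those of the overlapping gene may then not be told apart.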

How the data were processed

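RNA-Seq was done on 12 libraries of sorted donor T cells. Per the methods, the authors aligned single-end reads to mm10 (GRCm38) with STAR and ran HTSeq-count over RefSeq genes, and they deposited the counts without normalization. The authors also deposited RPKM values, which are counts per kilobase of exon scaled to a library size that was 0.942 to 1.02 times the total. RPKM was used to set genes beside each other and in an alternative test. The labels name another library kit than the methods and carry a protocol of another cell type, neither of which was used.

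Fits were made with edgeR (version 4.0.16, under R version 4.3.3). Low genes were removed with filterByExpr (10 counts, total of 15), and the rest were scaled by TMM, and tested with the quasi-likelihood test in 1 fit per subset (6 libraries, 3 residual degrees of freedom) or in 1 fit of 12 libraries (6 degrees of freedom) for comparisons between subsets. An adjusted p (Benjamini-Hochberg over all genes tested) under 0.05 was a call. SE is the log2 fold change over the square root of F. For CD4+ libraries the common biological coefficient of variation came to 0.189, and for CD8+ libraries to 0.169. At these totals precision is set by differences between pools rather than by depth. With 2 libraries against 2, an exact permutation test cannot go below p = 0.333 and was not used. No pair of replicates was alike within counting noise. The scripts were tested on simulated data.

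Levels are CPM on the TMM scale of the 12 libraries. Library values were given for the gene of each group with the highest mean RPKM, for the 3 called genes with the largest change in each comparison, and for any called gene that moved against the rest, of which there were 0. Mcm2, Mcm7, Orc1, Pola1, Pole, and Rrm2 were added after their values were seen. Other genes were named where a small count singled them out, and of the other lists up to 4 with the smallest p in STAT3-/-PD-1-/- against STAT3-/- cells. The members and all lists were chosen with earlier results of these data known, so that they are no independent support.

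Alternatives were DESeq2 (version 1.42.0), limma (version 3.58.1) on log2(RPKM + 1) and log2(RPKM + 0.1), RLE and upper-quartile scaling, other filters, other sets of libraries in the fit, a replicate block, and leaving out each library. A supplemental figure legend of the paper describes the CD8+ T cells as coming from the liver tissue that gave the CD4+ cells. The labels do not say that equal numbers mark the same pool. Deviations of same-numbered CD4+ and CD8+ libraries from their group means correlated at 0.629, 0.625, and 0.750 across 12334 genes, and the pool was used as a block for comparisons between subsets. Those of different genotypes, which are different pools, reached 0.733, so that the correlations alone do not mark a pool. Promoters and motifs were read with Python (version 3.11.15) and pandas (version 2.3.3), and figures were drawn with matplotlib (version 3.10.9).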

Additional observations from a re-analysis of the deposited data

How the results depend on the processing

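Of the 9 median log2 fold changes of the 44 genes, none changed sign under any alternative or with any library left out. Counts of called genes were less stable. With 1 library left out at a time, the counts ranged from 0 to 39 for STAT3-/-PD-1-/- against WT and from 0 to 23 for STAT3-/-PD-1-/- against STAT3-/- CD4+ T cells, from 2 to 31 and from 0 to 16 for the same comparisons in CD8+ T cells, and from 4 to 26 in WT and 8 to 28 in STAT3-/- for CD8+ against CD4+ T cells. The lone library left in a group is then assumed to vary like the other groups. The share of all genes called with a library left out is not given here. A fall in these counts therefore cannot be told from a general loss of calls, and the medians are the values to compare. The medians ranged from 0.83 to 1.08 for STAT3-/-PD-1-/- against WT in CD4+ and 0.54 to 0.75 in CD8+ T cells, from 0.35 to 0.46 against STAT3-/- in CD8+ T cells, from 0.00096 to 0.27 and 0.13 to 0.33 for STAT3-/- against WT in CD4+ and CD8+ T cells, and from 0.49 to 0.77 and 0.61 to 0.78 for CD8+ against CD4+ in WT and STAT3-/- cells.

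With limma on log2(RPKM + 0.1), 17 genes in CD4+ and 7 in CD8+ T cells were called in STAT3-/-PD-1-/- against STAT3-/-. DESeq2 called 1 gene for STAT3-/- against WT in CD8+ T cells and 3 for CD8+ against CD4+ STAT3-/-PD-1-/- cells. The share of all genes called in these fits is not given here. The counts therefore do not show whether the 44 genes moved apart from the rest. The cause of these differences was not tested. The replicate number, which coincides with the run of library numbers in the labels, is not said there to mark a batch, although the methods for TCR sequencing speak of 2 batches of 3 mice, and the deviations of different genotypes in a subset correlated at 0.046 to 0.733. As a replicate block it gave 44 and 38 calls for STAT3-/-PD-1-/- against WT and STAT3-/- in CD4+ (beside 26% of all genes in both) and 39 and 22 in CD8+ T cells (24.7% and 24.4%), so that Pcna, Pola1, and the 3 RPA genes, which have no call between genotypes in the main analysis, passed against WT in CD4+ T cells, and 1 and 0 for STAT3-/- against WT (2.53% and 0.075%), and 5 for CD8+ against CD4+ STAT3-/-PD-1-/- cells (7.61%). With the pool of recipients as the block, CD8+ against CD4+ gave 40 calls in WT (24.3% of all genes) and 16 in STAT3-/-PD-1-/- cells (14.4%).

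Some single genes changed sign, each of them without a call in the main fits, and those given here are examples. For STAT3-/- against WT in CD4+ T cells, the log2 fold change of Mcm3 was -0.0087 with only the 4 libraries compared, and that of Rfc3 was -7.74e-05 with DESeq2, -7.73e-05 with RLE scaling, -0.0096 and -0.0091 with limma on log2(RPKM + 0.1) and log2(RPKM + 1), and -0.010 with only the 4 libraries. With 1 library left out, the same comparison ranged from -0.036 to 0.43 for Gins1, -0.13 to 0.50 for Gins2, -0.090 to 0.17 for Gins4, -0.12 to 0.15 for Mcm3, -0.29 to 0.75 for Pcna, -0.11 to 0.0034 for Pold2, -0.21 to 0.20 for Rfc3, -0.014 to 0.13 for Rpa1, and -0.11 to 0.41 for Rrm1. In CD8+ T cells it ranged from -0.028 to 0.31 for Cdt1, -0.0085 to 0.22 for Gins2, -0.090 to 0.45 for Mcm3, -0.053 to 0.23 for Pcna, and -0.10 to 0.19 for Rfc3. For STAT3-/-PD-1-/- against STAT3-/- CD4+ T cells, Pcna ranged from -0.062 to 0.92. Over all alternatives, Orc1 ran from -0.59 to 0.63 in CD4+ and from -0.28 to 0.55 in CD8+ T cells for STAT3-/- against WT. Pola1 ran from -0.24 to 0.18 for STAT3-/-PD-1-/- against STAT3-/- in CD8+ T cells. Of the other values of named genes, 1252 kept direction and side of the threshold, 106 were no longer past it, and 53 were newly past it. The count of 1252 includes a value of the promoter motif share, which stayed within its interval. The motif share of the promoters was 14.6% with TTTCGCGC alone, against 0.323% of all windows, and 12.2% in the bases before the start alone, against 0.654%.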
